A study of Mus musculus with 6 samples.

Results

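Cushion mesenchyme and epithelial- or endothelial-to-mesenchymal transformation (EMT) transcription factors were examined in the atrioventricular canal region of the embryonic mouse heart, with and without Scx. The set was given by name and not by any measured value. It holds 10 genes (Sox9, Twist1, Msx1, Msx2, Snai1, Snai2, Zeb1, Zeb2, Prrx1 and Tbx20), of which 9 had values among the 18810 genes of the table, and Snai1 was not analysed here. Mice were of the C57BL/6 strain and hearts were taken at embryonic day 15.5, with 3 libraries from hearts null for Scx and 3 from wild-type littermates. The null allele was carried in all cells of the embryo, and the dissected regions held the mitral, tricuspid and aortic valves, without sorting of cells. They were cut to leave out most myocardium. The summed level of 12 cardiomyocyte markers was 17725 RPKM or more in every library, against 1379 RPKM or less for 10 valve mesenchyme markers. Sums over different genes do not measure the share of each tissue. Values are RPKM, reads scaled to the length of a gene's exons and to the depth of the library, so that levels can be compared between genes.

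Valve leaflets arise from endocardial cushions, where endocardial cells lose contact with each other, become mesenchyme and invade the matrix of the cushion. Snai2, Snai1, Zeb1, Zeb2 and Twist1 repress epithelial or endothelial adhesion genes or promote mesenchyme in this process, and Msx1 and Msx2 act in it downstream of BMP signals. Sox9 and Twist1 keep cushion cells proliferating, Prrx1 marks mesenchyme, and Tbx20 acts in endocardial cushion and myocardium alike. Scleraxis (Scx) is a basic helix-loop-helix factor, as is Twist1, and such factors bind the E-box CANNTG, where N is any base, while Snail and Zeb proteins bind the form CACCTG.

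The promoters of Msx1, Msx2 and Prrx1, the 3 members with the largest positive differences between Scx-/- and Scx+/+, are shown because they can be searched for the E-box. Each holds 250 bases before the start of the RefSeq transcript in GRCm38.p6 on the minus strand, written 5′ to 3′ with matches to CANNTG in capitals. CANNTG reads the same pattern on both strands, and CACCTG and its reverse CAGGTG are forms of it. The Msx1 sequence is chr5:37824586-37824835, the Msx2 sequence chr13:53472781-53473030 and the Prrx1 sequence chr1:163313651-163313900.
Msx1: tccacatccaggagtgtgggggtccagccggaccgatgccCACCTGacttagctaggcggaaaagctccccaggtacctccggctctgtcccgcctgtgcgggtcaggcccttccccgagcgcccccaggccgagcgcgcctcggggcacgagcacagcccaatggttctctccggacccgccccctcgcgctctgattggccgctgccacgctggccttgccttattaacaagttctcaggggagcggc
Msx2: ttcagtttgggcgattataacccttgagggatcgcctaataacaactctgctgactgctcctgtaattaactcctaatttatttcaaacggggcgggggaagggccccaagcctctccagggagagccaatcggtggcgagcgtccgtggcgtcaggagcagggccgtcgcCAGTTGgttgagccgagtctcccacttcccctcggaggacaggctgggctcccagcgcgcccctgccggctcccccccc
Prrx1: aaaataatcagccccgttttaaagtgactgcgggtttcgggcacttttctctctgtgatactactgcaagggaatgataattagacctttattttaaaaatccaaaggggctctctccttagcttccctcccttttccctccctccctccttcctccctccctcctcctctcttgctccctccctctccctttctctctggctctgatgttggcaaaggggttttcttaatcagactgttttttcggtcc

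Msx1 held 1 match, CACCTG at position -210 from the start, Msx2 held 1 match, CAGTTG at position -79, and Prrx1 held 0. In the first listed promoter of Tbx20, Zeb2 and Twist1 there were 0 matches in the same window. Of 27025 promoters, 1 for each gene, 66.04% held CANNTG and 17.1% held CACCTG or CAGGTG. Sox9, Snai2 and Zeb1 had no entry in the promoter table. A match is a description of the letters and not a binding site.

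Replicates 1 to 3 of each genotype held whole-gene Scx at 33.6, 18.6 and 82.9 RPKM (Scx-/-) and at 29.5, 58.3 and 26.0 RPKM (Scx+/+). The values overlapped and gave no check of the genotype labels, since the table has no value for the deleted exon alone, and libraries are named by their labels. The study itself reports a large decrease of Scx exon 1 in its Scx-/- samples, seen ahead of sequencing. Depth was 46429974 to 68571004 reads per library. Scx-/- replicate 3 and Scx+/+ replicate 2 stood apart from the other 4 libraries, a choice made after seeing the data. In this pair the embryonic globin Hbb-y was 1.16 and 1.99 RPKM against 49.6 to 125 RPKM in the others, and the summed level of 12 cardiomyocyte markers was 28486 and 31088 RPKM against 17725 to 23917 RPKM. The erythroid markers as a whole did not follow Hbb-y. The summed level of 9 of them was 9505 and 10643 RPKM in the pair, within the 7812 to 14267 RPKM of the others. Scx itself was 58.3 to 82.9 RPKM in the pair and 18.6 to 33.6 RPKM in the other 4. Each genotype holds 1 of these libraries, and results are given below with and without them where they matter.

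By level, Tbx20 led the set with a mean over the 6 libraries of 49.96 RPKM, above 91.2% of all genes in the table. Zeb1 followed at 14.1 RPKM and Zeb2 at 5.29 RPKM, above 77.9% and 59.5% of genes. Prrx1 at 3.00, Twist1 at 2.18, Sox9 at 2.10 and Snai2 at 1.96 RPKM lay close together, and Msx1 at 0.582 and Msx2 at 0.217 RPKM were near the bottom of the table, with Msx2 above 2.67% of genes. The order Tbx20, Zeb1, Zeb2, Prrx1 held in 6 of 6 libraries with no overlap of ranges between neighbours. From Prrx1 down every pair of neighbours had overlapping ranges. Twist1 was above Sox9 in 5 of 6 libraries and Sox9 above Snai2 in 4 of 6, so these levels were not told apart.

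**Figure D1:**
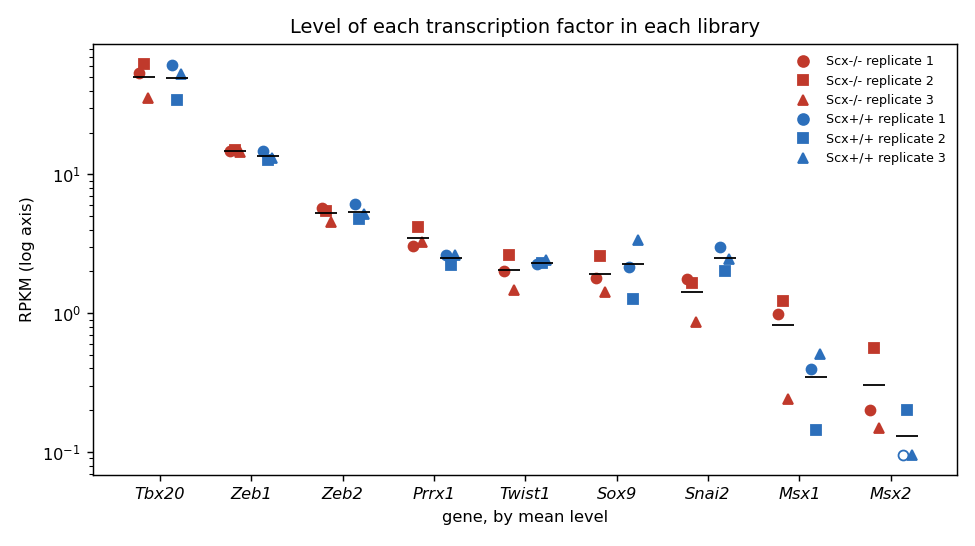
RPKM on a log axis for each of the 9 transcription factors in each library (red, Scx-/-, blue, Scx+/+, marker shape, replicate), with the mean of each genotype as a black line and a value at the common fill-in value as an open marker. Snai2 is lower in all 3 Scx-/- libraries and Prrx1 is higher in all 3, and the other 7 genes overlap.

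Snai2 was the single member that passed the test. In mm9 it lies at chr16:14705945-14709488 on the plus strand, and its value is summed over the exons. For this zinc finger repressor of the Snail family the Scx-/- replicates gave 1.78, 1.64 and 0.865 RPKM in order, with 189, 223 and 105 reads. The Scx+/+ replicates gave 2.99, 2.004 and 2.46 RPKM, with 364, 189 and 343 reads. Every Scx-/- library lay below every Scx+/+ library, and the lowest value was that of Scx-/- replicate 3. Mean levels were 1.43 ± 0.492 RPKM (Scx-/-, SD, n = 3) and 2.48 ± 0.491 RPKM (Scx+/+, SD, n = 3).

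On the log2(RPKM + 0.1) scale, the difference of Snai2 was -0.80 (standard error 0.35), a fold of 0.574 with a 95% interval of 0.332 to 0.992. In limma it had p = 0.0475 and an adjusted p = 0.967, and the exact permutation test, two-sided, gave p = 0.1, the smallest that 3 libraries against 3 allow. Without the pair of libraries that stood apart it was -0.64, with a 95% interval of -1.29 to 0.01, and was not called. With the median of each of those 4 libraries set to 0 it was -0.78 and called (adjusted p = 0.646 from limma), as were 1446 genes in all. The smallest difference with a library left out, -0.50, came without Scx-/- replicate 3 and was not called, and the call also ended without Scx-/- replicate 2 and without Scx+/+ replicate 1 or 3. Of the 9 members, 1 was called at an unadjusted p below 0.05, where 3.89% of all 18810 genes were called in either direction, 1.06% lower and 2.82% higher. After adjustment 0 genes of the table passed limma, among 731 at an unadjusted p below 0.05.

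Prrx1, a paired-type homeobox factor of mesenchyme, was the other member without overlap between genotypes. It lies at chr1:165175247-165243841 on the minus strand of mm9. The Scx-/- replicates gave 3.03, 4.203 and 3.26 RPKM, with 1754, 3117 and 2153 reads. The Scx+/+ replicates gave 2.64, 2.23 and 2.63 RPKM, with 1756, 1148 and 1994 reads. The gap between the highest Scx+/+ and the lowest Scx-/- library was small beside the spread among the Scx-/- libraries. Its log2 difference was 0.46 (standard error 0.25, 95% interval -0.10 to 1.02, adjusted p = 0.967 from limma), which did not pass, and the exact permutation test gave p = 0.1. An unmoderated test of each gene, as in the methods of the study, called Prrx1 and did not call Snai2, with 4.6% of all genes called. Non-overlap between genotypes was seen in 2 of the 9 members and in 9.5% of all genes, 2.31% lower and 7.19% higher in Scx-/-.

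In a library, the ratio of Prrx1 to Snai2 does not depend on how that library was scaled. This ratio was chosen after the values were seen and is given without a test. The Scx-/- replicates gave 1.70, 2.56 and 3.76, and the Scx+/+ replicates 0.885, 1.11 and 1.07. The Scx+/+ libraries lay close to 1, with replicate 1 below it, and every Scx-/- library lay above them. That separation was fixed by the choice, since Prrx1 was higher and Snai2 lower in every Scx-/- library than in every Scx+/+ library.

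Msx1 and Msx2, homeobox factors of BMP-responsive cushion mesenchyme, rested on few reads. They lie on the minus strand of mm9, Msx1 at chr5:38211724-38215822 and Msx2 at chr13:53562250-53568443. For Msx1 the Scx-/- replicates gave 0.988, 1.22 and 0.242 RPKM, with 100, 158 and 28 reads. The Scx+/+ replicates gave 0.396, 0.145 and 0.505 RPKM, with 46, 13 and 67 reads. In each genotype the library that stood apart was the lowest, and Scx-/- replicate 3 lay within the Scx+/+ range while the other two Scx-/- libraries lay above it. The log2 difference was 0.91 (standard error 0.64, 95% interval -0.55 to 2.37, adjusted p = 0.967 from limma), which did not pass. Without Scx-/- replicate 3 it was 1.52 and called, as were 4.36% of all genes. Without both libraries that stood apart it was 1.13 and called (95% interval 0.28 to 1.98, adjusted p = 0.578 from limma), as were 8.44% of all genes. With the median of each of those 4 libraries set to 0 it was 0.98 and not called.

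For Msx2 the Scx-/- replicates gave 0.202, 0.559 and 0.150 RPKM, with 26, 92 and 22 reads. In Scx+/+ replicate 1 it was listed at the fill-in value of 0.0949 RPKM. By exon length and depth this stands for at most 13 reads of Msx2, while the authors describe the fill-in as 10 reads or fewer. In Scx+/+ replicates 2 and 3 Msx2 was 0.202 RPKM from 23 reads and 0.0950 RPKM from 16 reads. Scx-/- replicate 2 was the highest for Msx2 as for Msx1. The log2 difference of Msx2 was 0.71 (standard error 0.65, 95% interval -0.76 to 2.18, adjusted p = 0.967 from limma). It was 0.29 without Scx-/- replicate 2 and 1.20 without both libraries that stood apart, and neither was called. In the latter fit the Scx+/+ values left, 0.0949 and 0.0950 RPKM, lay at or next to the fill-in value. The ratio of Msx1 to Msx2 was 4.88, 2.18 and 1.62 in Scx-/- and 4.17, 0.717 and 5.31 in Scx+/+, where the value of 4.17 uses the fill-in value. The mean log2 ratios of the genotypes differed by 0.037 (exact permutation test, two-sided, p = 1).

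**Figure D2:**
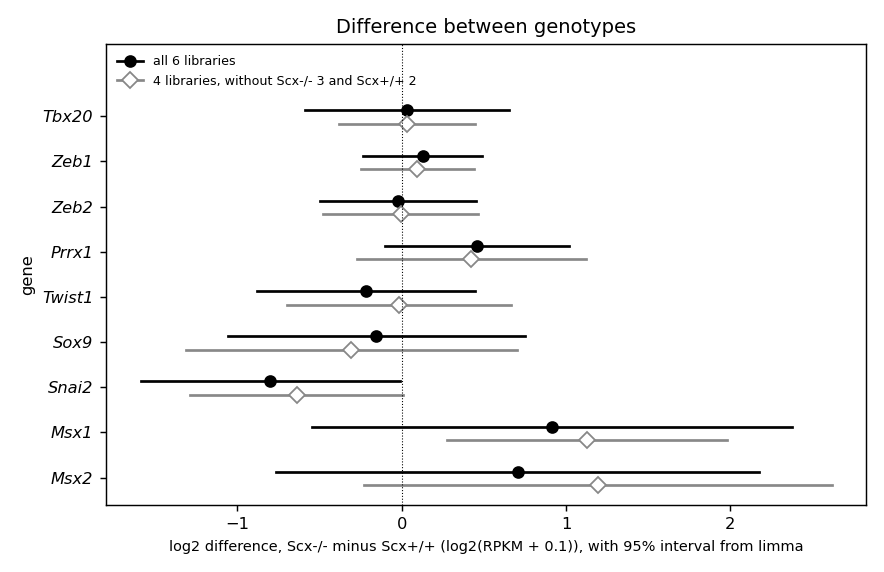
Log2 difference of each member, Scx-/- minus Scx+/+, on the log2(RPKM + 0.1) scale, with 95% intervals from limma for all 6 libraries (black) and for 4 libraries without Scx-/- replicate 3 and Scx+/+ replicate 2 (grey). With 6 libraries the interval of Snai2 alone ends below 0, at -0.01, and with 4 libraries the interval of Msx1 alone leaves out 0.

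Zeb1 and Zeb2, zinc finger homeobox repressors of epithelial genes such as Cdh1, varied least. Zeb1 was 14.6, 15.0 and 14.6 RPKM in Scx-/- and 14.7, 12.7 and 13.1 RPKM in Scx+/+, from 5747 to 9773 reads per library. Scx+/+ replicate 1 lay among the Scx-/- libraries and the other two Scx+/+ libraries below them. Its log2 difference was 0.13 (standard error 0.16, 95% interval -0.23 to 0.49). Zeb2 was 5.71, 5.46 and 4.58 RPKM in Scx-/- and 6.10, 4.77 and 5.16 RPKM in Scx+/+, with a log2 difference of -0.02 (standard error 0.21, 95% interval -0.50 to 0.45). Differences of 2-fold in either direction lay outside the intervals of both genes.

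The ratio of Zeb2 to Zeb1 was 0.390, 0.364 and 0.314 in Scx-/- and 0.415, 0.374 and 0.394 in Scx+/+. The mean log2 ratios differed by -0.15, and the genotypes overlapped (exact permutation test, two-sided, p = 0.2, adjusted p = 0.4 over the 2 ratios tested). Of the 36 pairs of members, Zeb1 and Zeb2 had the most constant ratio over the 6 libraries, with a standard deviation of 0.14 on the log2 scale, and Snai2 and Msx1 the least constant, with 1.05. An opposite-strand lincRNA, Gm13476, shares 458 exon bases with Zeb2 and was 1.598 to 2.561 RPKM. A strand for the counting is not given in the sources used here, so its reads and those of Zeb2 cannot be told apart there.

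**Figure D3:**
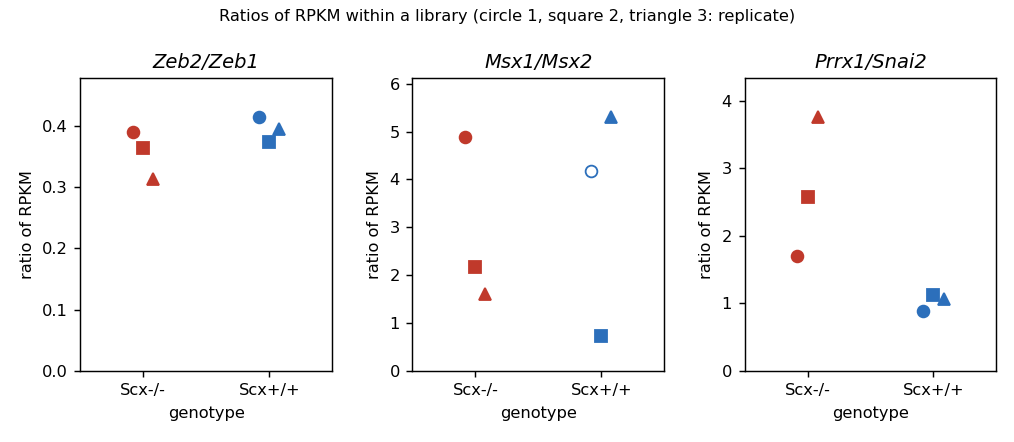
Ratio of the RPKM of 2 members within each library, by genotype (red, Scx-/-, blue, Scx+/+, circle, square and triangle for replicates 1 to 3, open marker where Msx2 is at the fill-in value). Zeb2 to Zeb1 stays between 0.314 and 0.415, Msx1 to Msx2 overlaps between genotypes, and Prrx1 to Snai2 is 1.70 or more in Scx-/- and 1.11 or less in Scx+/+. Prrx1 and Snai2 were paired because each did not overlap, in opposite directions, so the separation of their ratio was fixed by that choice.

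For Twist1, the basic helix-loop-helix factor of cushion mesenchyme, the Scx-/- replicates gave 2.02, 2.62 and 1.46 RPKM and the Scx+/+ replicates 2.26, 2.29 and 2.41 RPKM. The Scx+/+ libraries lay inside the range of the Scx-/- libraries, with a standard deviation of 0.0796 RPKM against 0.581 RPKM. The log2 difference was -0.22 (standard error 0.29, 95% interval -0.88 to 0.45), and it was -0.01 without Scx-/- replicate 3. Sox9, the high mobility group factor of cartilage that also drives cushion growth, was 1.79, 2.60 and 1.41 RPKM in Scx-/- and 2.15, 1.26 and 3.36 RPKM in Scx+/+. Its highest and lowest libraries were both Scx+/+, and the log2 difference was -0.15 (standard error 0.40, 95% interval -1.06 to 0.75).

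Tbx20, a T-box factor of endocardial cushion and myocardium, was 53.4, 62.9 and 35.4 RPKM by replicate in Scx-/-. By the same numbering it was 61.0, 34.5 and 52.6 RPKM in Scx+/+. The low library of each genotype was the one that stood apart, at 35.4 and 34.5 RPKM, while the other 4 lay between 52.6 and 62.9 RPKM. The log2 difference was 0.03 (standard error 0.27, 95% interval -0.59 to 0.65), and without both low libraries it was also 0.03, with a narrower 95% interval of -0.38 to 0.45. Its sign turned negative when the medians of the libraries were equalised.

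For 4 of the 9 members (Tbx20, Zeb2, Sox9 and Msx1), the lowest pair of values were those of Scx-/- replicate 3 and Scx+/+ replicate 2, as they were for 18.3% of all genes. Zeb2 was 4.58 to 4.77 RPKM in that pair against 5.16 to 6.10 RPKM in the other 4, and Sox9 was 1.26 to 1.41 against 1.79 to 3.36 RPKM. The summed level of the 9 genes was 60.1 to 61.9 RPKM in the pair and 82.3 to 96.2 RPKM in the others, most of it Tbx20. Without Tbx20 the sum of the other 8 was 25.7 to 26.5 RPKM against 29.7 to 33.3 RPKM, and Zeb1, Prrx1, Twist1, Snai2 and Msx2 each had overlapping ranges. The summed level of the cardiomyocyte markers was highest in the pair and Hbb-y lowest. Myh6, Myl2, Tnni3 and Tnnt2 were each higher in the pair than in the others. Ryr2 was not, at 44.2 and 45.8 RPKM in the pair and 31.7 to 55.9 RPKM in the others. Nor was Myh7, at 2148 and 2826 RPKM in the pair and 1923 to 2824 RPKM in the others. The part of muscle content, or of any other difference between these hearts, in the levels of the members was not tested. In whole tissue, fewer cells of a type and less RNA per cell cannot be told apart.

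**Figure D4:**
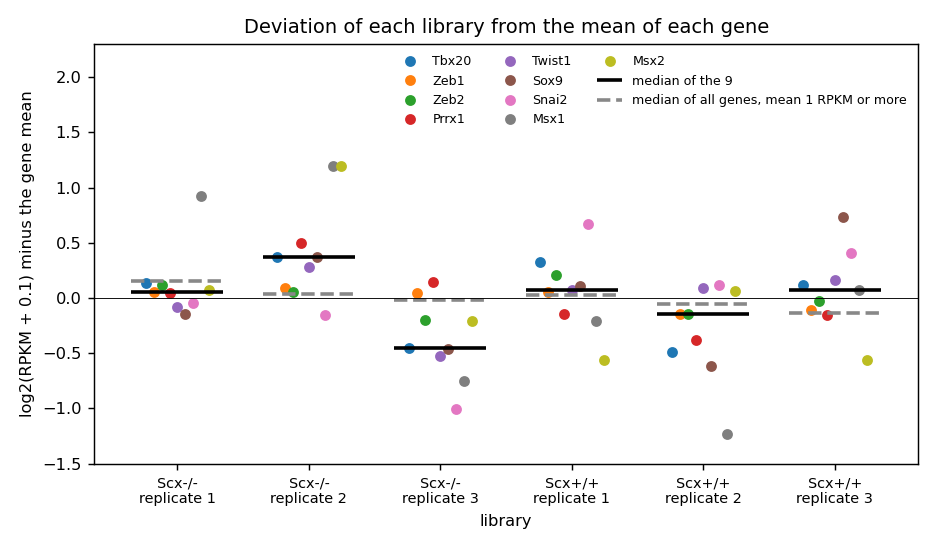
Log2(RPKM + 0.1) of each member in each library minus its mean over the 6 libraries (points), with the median of the 9 members (black line) and of all genes averaging 1 RPKM or more (grey dashed line). The median of the members is -0.46 in Scx-/- replicate 3 and -0.14 in Scx+/+ replicate 2, where the median of all genes is -0.01 and -0.05, and it is highest in Scx-/- replicate 2 at 0.37.

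Over the 9 members the median log2 difference was 0.03, against 0.10 over all genes tested, and 5 of the 9 were above 0. The genes whose ratio to the mean profile of the members was most constant, among 7327 genes compared, were Gm12352, Thbs2, 1600014C10Rik, 4930473A06Rik and Poldip3. The standard deviation of their log2 ratio to the profile was 0.0566 to 0.0905 over 6 libraries. Thbs2, a matricellular protein, was 19.7, 26.5 and 15.3 RPKM in Scx-/- and 18.8, 14.7 and 18.9 RPKM in Scx+/+.

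Other genes of the EMT pathway were counted in the same way. Of 26 ligands, receptors and signal transducers of the TGF-beta, BMP, Notch, Wnt and related pathways, 25 had values, 1 was called lower and 0 higher, with a median log2 difference of 0.00064, beside 3.89% of all genes called. The called gene was the BMP type II receptor Bmpr2, at 12.7, 11.2 and 8.92 RPKM in Scx-/- and 16.5, 12.2 and 24.7 RPKM in Scx+/+. Its log2 difference was -0.65 (standard error 0.27, adjusted p = 0.967 from limma), the genotypes overlapped, and leaving out each library in turn kept the call in 1 of 6 cases. The beta-catenin gene Ctnnb1, the most abundant of the list, was 184 ± 6.18 RPKM with the null allele and 160 ± 12.7 RPKM in wild type (both SD, n = 3), without overlap, and was not called (log2 difference 0.20, standard error 0.16).

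Among 17 genes of adhesion, cytoskeleton and matrix that change in EMT, 13 had values and 0 were called in limma in either direction, with a median log2 difference of 0.12. Their summed level overlapped as deposited, at 1348 to 1589 RPKM in Scx-/- and 1183 to 1384 RPKM in Scx+/+. With library medians set to 0, a scaling applied after the data were seen, it narrowly did not. The ranges were then 1361.4 to 1430.6 RPKM in Scx-/- and 1296.2 to 1360.7 RPKM in Scx+/+. The intermediate filament gene Vim was 517 ± 88.7 RPKM with the null allele and 472 ± 32.1 RPKM in wild type (both SD, n = 3). By the same measure the matricellular gene Postn stood at 299 ± 85.5 and 209 ± 56.3 RPKM, and the cadherin Cdh2 at 36.9 ± 3.14 and 39.1 ± 8.93 RPKM.

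Of 12 partners and cartilage-type targets of Sox9, 8 had values and 0 were called in limma, with a median log2 difference of 0.07. Hapln1, which links hyaluronan to proteoglycans, was 2.60, 3.28 and 2.37 RPKM in Scx-/- and 2.25, 2.09 and 2.16 RPKM in Scx+/+, without overlap (log2 difference 0.32, standard error 0.25). Col2a1, Acan, Col11a2 and Matn1 were not analysed here. Of 12 partners and neighbours of Tbx20, 11 had values and 0 were called, with a median of 0.01. Gata4 was 8.35 ± 2.58 RPKM with the null allele and 8.13 ± 1.53 RPKM in wild type (both SD, n = 3).

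Of 10 paralogs of the members, 2 had values and neither was called. Prrx2, the paralog of Prrx1, was 1.35, 1.82 and 1.41 RPKM in Scx-/-, and 1.30 and 1.20 RPKM in Scx+/+ replicates 1 and 3 with replicate 2 at the fill-in value. Like Prrx1 it did not overlap between genotypes, with a log2 difference of 1.19 (standard error 0.71), which was 0.26 without Scx+/+ replicate 2.

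Marker lists of the cell types that the dissected region could hold were compared by their summed level and by gene. The summed level of 10 valve interstitial and mesenchyme markers was 1231 to 1379 RPKM in the Scx-/- libraries and 993 to 1115 RPKM in the Scx+/+ libraries. Lum, a small leucine-rich proteoglycan of collagen matrix, was the single gene of that list called, at 71.1, 122 and 83.8 RPKM in Scx-/- and 53.4, 48.1 and 48.2 RPKM in Scx+/+ (log2 difference 0.85, standard error 0.21, adjusted p = 0.967 from limma). The sum of 8 epicardial markers was 34.0 to 43.9 RPKM against 26.2 to 32.6 RPKM. Neither sum overlapped between genotypes as deposited, and both did with library medians set to 0, a scaling applied to the sums after the data were seen, at 1108 to 1348 against 1072 to 1156 RPKM for mesenchyme and 34.3 to 42.9 against 27.1 to 35.7 RPKM for epicardium. Vim and Postn, the most abundant mesenchyme markers, overlapped and were not called. Dcn did not overlap and was not called, at 148, 170 and 172 RPKM in Scx-/- and 113, 147 and 113 RPKM in Scx+/+. Non-overlap was seen in 4 of the 10 mesenchyme markers and in 9.5% of all genes. Of the 8 epicardial markers 3 were called higher, where 2.82% of all genes were. Their log2 differences were 0.57 for Tcf21 (standard error 0.21), 0.61 for Upk1b (0.25) and 0.60 for Aldh1a2 (0.25), each at an adjusted p = 0.967 from limma. These calls were lost with library medians set to 0, and leaving out each library in turn kept them in 3, 2 and 1 of 6 cases. The part of the mesenchyme and epicardial markers in the values of Prrx1 and Snai2 was not tested.

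The other marker lists had overlapping sums between genotypes as deposited, and with library medians set to 0 the endothelial sum alone of these did not, at 146 to 160.1 RPKM in Scx-/- and 161 to 169 RPKM in Scx+/+. Of 12 cardiomyocyte markers 1 was called lower, the calcium release channel Ryr2, where 1.06% of all genes were. Its log2 difference was -0.46 (standard error 0.18, adjusted p = 0.967 from limma). Leaving out each library in turn kept the call of Ryr2 in 2 of 6 cases. Of 10 endothelial, 7 smooth muscle and 9 erythroid markers 0 were called in limma. Of 6 neural crest glia and melanocyte markers with values, 2 were called higher, where 2.82% of all genes were, each at an adjusted p = 0.967 from limma. Dct (log2 difference 0.90, standard error 0.36) overlapped between genotypes. Its call was lost with library medians set to 0 and without the pair that stood apart. Mlana was 1.20, 0.359 and 0.376 RPKM in Scx-/- whereas each of the 3 Scx+/+ libraries carried the fill-in value. With a library left out, Mlana stayed called in 6 of 6 cases and Dct in 2. Mitf, the most abundant of the list, overlapped and was not called (log2 difference 0.08, standard error 0.18). Of 7 macrophage markers 1 was called higher, where 2.82% of all genes were. This was Cd68 (log2 difference 1.48, standard error 0.57, adjusted p = 0.967 from limma). Its Scx+/+ values were 0.358, 0.0949 and 0.476 RPKM, with replicate 2 at the fill-in value. The Cd68 call was kept in 3 of 6 cases with a library left out, and was lost without the pair that stood apart. Differences were above 0 for 5 of the 7 markers. Lyz2, the most abundant, was at -0.08 and C1qb at -0.31. No list held a marker at the fill-in value in all 6 libraries, but genes that never reached some 50 reads had been dropped beforehand. It therefore does not show that every marker was detected. Values were present for 6 of 10 named neural crest glia and melanocyte markers, 7 of 8 macrophage and 9 of 10 erythroid markers.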

How the data were processed

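RNA from 6 libraries, 3 per genotype, was aligned by the authors to mm9 with TopHat 1.4.1, and exon reads were counted with easyRNASeq. The authors deposited RPKM. They dropped genes that never reached some 50 reads, and set values of 10 reads or fewer to a common value, 0.0949 RPKM here, found 8395 times. Of 18810 identifiers, 18695 were matched to the GENCODE annotation of mm9. Depth was recovered from RPKM and exon length, after which 98.5% to 98.6% of values under 1000 reads came out whole (tolerance 0.1 read). Zeb2 did not, so its reads are not stated. No count test was run. Values on the log2(RPKM + 0.1) scale were tested with limma 3.58.1 (R 4.3.3, trended variance, Benjamini-Hochberg over all genes), and a call is an unadjusted p below 0.05, the threshold of the study. The fit was tested on simulated data. Replicates are separate embryos by the methods, and p-values cover the spread among these. Members, lists and ratios were chosen with earlier results of these data known, though the members were given by name and not by value. Lists are described as sets by counts and medians. Each member was tested in limma, and the paralog ratios by exact permutation tests. The genes named are the members, Scx, genes sharing exon bases with members, called, non-overlapping or most abundant list genes, and those with the most constant ratio to the members. Figures were drawn with matplotlib 3.10.9, and exact tests used scipy 1.17.1.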

Additional observations from a re-analysis of the deposited data

How the results depend on the processing

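Snai2 stayed lower and Prrx1, Msx1, Msx2 and Twist1 kept their direction in every alternative run for them, and no member reached an adjusted p below 0.05 in any. For Snai2 the call was lost when genes under a mean of 1 RPKM were left out (-0.80), with one-way ANOVA (-0.80) and without the pair of libraries that stood apart (-0.64), which was added once the data had been seen. Snai2 was called in 8 of 16 alternatives, among them library medians set to 0 (-0.91) and quantile normalization (-0.87). The filter and the replicate block left 0 members called. Prrx1 was called with one-way ANOVA (0.46), and Msx1 without the pair (1.13). With each library left out, members called ranged from 0 to 1, the difference of Snai2 from -0.98 to -0.50, of Prrx1 from 0.32 to 0.55, of Msx1 from 0.53 to 1.52, of Msx2 from 0.29 to 0.99, of Tbx20 from -0.20 to 0.27, of Zeb2 from -0.10 to 0.074, of Sox9 from -0.50 to 0.17, and of the Msx1 to Msx2 log2 ratio from -0.87 to 0.58. Tbx20 was -0.076 with library medians set to 0, -0.10 with quantile normalization and -0.11 with both the pair left out and medians set to 0, where Zeb1 was -0.051. All genes called were 731, ranging from 539 to 1549 with a library left out, the highest without Scx+/+ replicate 2, and 1587 without the pair (1446 with medians set to 0). After adjustment, one-way ANOVA called 1 gene. For reversed values and lost calls the cause was not tested. No Snai2 to Snai1 ratio could be computed. Leaving out a library in a fit leaves 2 against 3.

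With the replicate number as a block Snai2 was -0.80 and not called, and 573 genes were called. The numbers share no litter or day in the labels, and deviations of same-numbered libraries correlated at 0.062, -0.16 and -0.12, so that they were not treated as pairs. Not every library correlated best with its own number. Msx1 and Msx2 rest on 13 to 158 reads, apart from the library where Msx2 is at the fill-in value, which limits the precision of both.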
